A study of Saccharomyces cerevisiae with 16 samples.

Results

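Nrd1-unterminated transcripts (NUTs) are yeast noncoding transcripts that were mapped in earlier work as RNAs that accumulate when the termination factor Nrd1 is removed from the nucleus. All 1526 features named NUT followed by a number were taken from the deposited table, which holds 11997 features other than external spike-in RNAs. Among these are also cryptic unstable transcripts (CUTs), stable unannotated transcripts (SUTs), Xrn1-sensitive unstable transcripts (XUTs), mRNAs and small RNAs. No measured value entered the choice. Nrd1 was present in every library, so the name itself could not be checked against a depletion of Nrd1 in these data.

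In normal cells the Nrd1–Nab3–Sen1 complex ends transcription of short noncoding RNAs early and hands them to the TRAMP complex and the nuclear exosome. The same complex forms the 3′ ends of small nucleolar RNAs (snoRNAs), which guide the modification and cleavage of ribosomal RNA. Transcripts that escape this route can reach the cytoplasm, where the 5′-3′ exonuclease Xrn1 and nonsense-mediated decay act. Upf1 is the helicase at the core of nonsense-mediated decay, and cycloheximide blocks translation elongation.

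Strand-specific total RNA was sequenced from 16 libraries in 8 groups, with 2 biological replicates in each according to the series record. The tested groups were wild-type (WT) cells starved of glucose with cycloheximide, WT cells in glucose with cycloheximide, starved xrn1Δ cells, xrn1Δ cells in glucose, starved upf1Δ cells, upf1Δ cells in glucose and starved WT cells, and the control was WT cells in glucose. Starvation was a 16-minute shift of mid-log cells to medium with glycerol and ethanol in place of glucose. Cycloheximide was given at 100 µg/ml to WT cells only, and the other WT cells received DMSO as a mock. All strains were MATa his3Δ1 leu2Δ0 met15Δ0 ura3Δ0, the mutants carried upf1Δ::kanMX4 or xrn1Δ::kanMX4 in addition, and the labels name 1 strain per genotype. No label gives a solvent for the mutants. The 4 cycloheximide libraries carry a different prefix in the column names than the other 12, so the drug and whatever the prefix marks cannot be told apart.

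Each value is the authors' normalized read density, in reads per nucleotide of a feature. The targeted genes went with the labels: UPF1 averaged 0.0147 ± 0.000746 reads per nucleotide in upf1Δ and 0.599 ± 0.0235 in WT cells, and XRN1 averaged 0.0775 ± 0.0117 in xrn1Δ and 1.16 ± 0.0343 in WT cells (SD, n = 2 each, glucose). The 5 markers of mating type a averaged between 0.961 and 9.62 reads per nucleotide in WT cells in glucose, against 0.00199 to 0.113 for the 4 markers of mating type alpha. External spike-in RNAs summed to about the same density in every library, as a scaling to them would give. How libraries were scaled is not given in the sources used here. The values alone do not show whether levels are per mass of total RNA. For this reason 2 other scalings are given wherever they change the picture, to the median protein-coding gene and to the median snoRNA. The share of all features called on those scales is not given, so a split that turns there may be shared by all features. From the steps between low values, a density of 0.00364, which was added to every value before taking log2, equals 3.29 to 13.8 reads per kilobase, with the fewest reads in the cycloheximide libraries.

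NUTs were mostly rare RNAs. Their median density was 0.0130 ± 0.000266 in starved WT cells with cycloheximide, 0.0334 ± 0.00226 in WT cells in glucose with cycloheximide, 0.0412 ± 0.000802 in starved xrn1Δ cells and 0.0374 ± 0.00233 in xrn1Δ cells in glucose. It was 0.00932 ± 0.000161 in starved upf1Δ cells, 0.0131 ± 0.00117 in upf1Δ cells in glucose, 0.00604 ± 9.88e-05 in starved WT cells and 0.00673 ± 4.02e-05 in WT cells in glucose (SD of the library medians, n = 2 each). The 2 libraries of each group lay close together, and the xrn1Δ groups and the glucose group with cycloheximide stood above the others. Only 48 NUTs averaged at least 1 read per nucleotide, 120 were at 0 in at least 1 library, and 1 was at 0 in all. The filter on low values, a mean of at least 0.00364, left 1434 NUTs for testing, and the 92 below it were not tested.

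**Figure D1:**
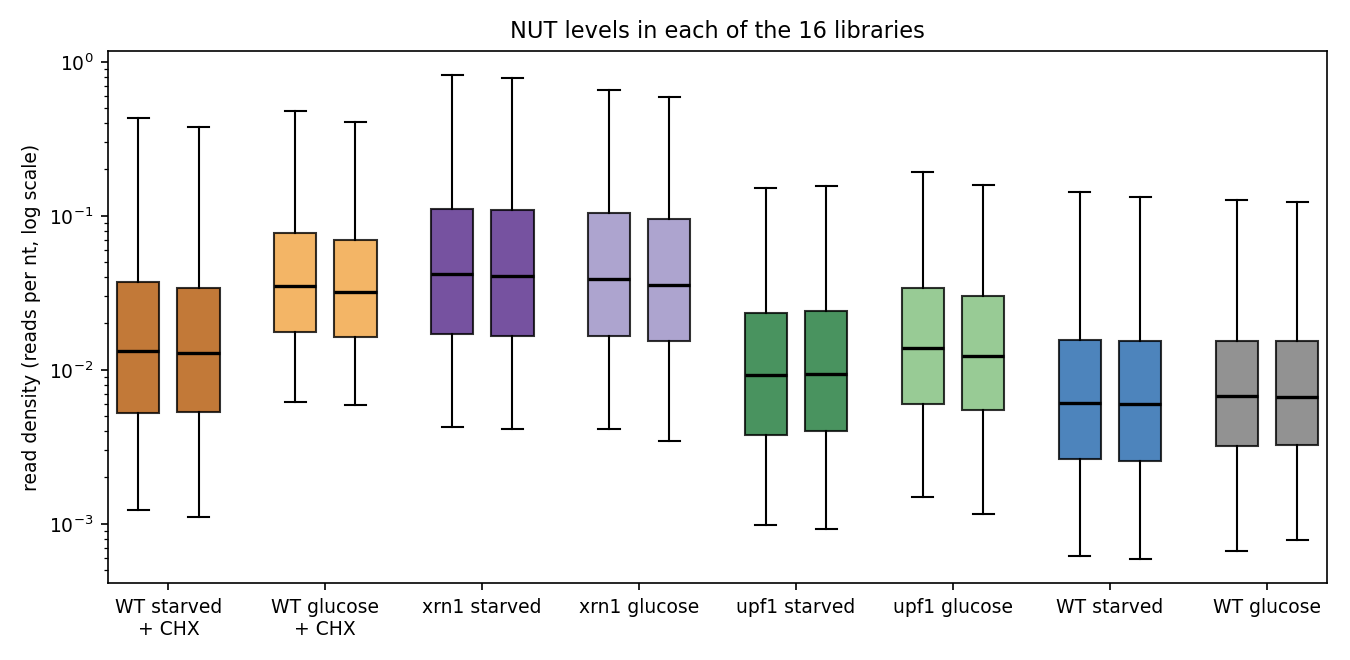
Read density of all 1526 NUTs (reads per nucleotide, log scale) in each of the 16 libraries, with boxes for the quartiles, black lines for the medians and whiskers for the 5th and 95th percentiles. Medians sit near 0.04 in xrn1Δ cells, against 0.00673 in WT cells in glucose, and both libraries of a group are alike.

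Of the 5 NUTs with the highest means, 3 tracked a snoRNA. NUT0490 averaged 53.2 reads per nucleotide over all libraries, NUT1169 49.7 and NUT0255 19.1, while NUT0227, the fifth, tracked the HSP12 mRNA. In every library NUT0490 stood at 0.570 times the density of snR30, a snoRNA needed for 18S ribosomal RNA processing. NUT1169 stood at 0.366 times snR37, and NUT0255 at 0.517 times snR82, both of them snoRNAs. A NUT whose ratio to another feature does not vary gives no measurement separate from that feature. To find all such pairs, the 404 NUTs with a mean of at least 0.05 and no zeros were set against every other feature of that level, and a pair was kept where the SD of its log2 ratio over the 16 libraries was below 0.05.

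Of these 404 NUTs, 170 (42.1%) had such a partner and 234 had none. The tightest partner was an XUT, SUT or CUT for 75 NUTs, an mRNA for 67 and a small noncoding RNA for 28. The other 1122 NUTs were too low or at 0 somewhere and were not examined. Every mRNA, XUT, SUT or CUT partner stood within 5 rows of its NUT in the deposited table, and every small RNA partner within 6 rows. Gene rows of that table ascend by chromosome start in 5932 of 5942 neighbouring pairs in the R64 reference, so row order stands for position, though no coordinates of the NUTs themselves were used here. Partners of NUT0001 to NUT0816 that are mRNAs were on the Watson strand in 36 of 36 cases, and those of NUT0817 to NUT1526 on the Crick strand in 32 of 32, so the 2 runs of numbers split by strand.

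By contrast, no CUT (of 204 at this level), SUT (of 502) or XUT (of 698) kept such a ratio to an mRNA, against 68 of 404 NUTs, of which 1 was tighter with a small RNA. No NUT kept one to another NUT. The NUT had the lower density in 64 of the 68 mRNA pairs, with a median ratio of 0.860 and a range of 0.282 to 1.10. Among pairs with small RNAs the ratio ran from 0.0357 for NUT0206 and snR4 to 0.657 for NUT1320 and snR86. For 5 NUTs, among them NUT1423 with XUT1700 and NUT1261 with SUT701, the ratio was identical in all 16 libraries to rounding error.

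The 28 small RNA partners were 25 snoRNAs and 3 other structural RNAs, the U1 spliceosomal RNA snR19 with NUT1342, snR14 with NUT0965 and the RNase MRP RNA NME1 with NUT0661. The 100 bases that follow the annotated end of the snoRNA are shown for the 4 NUTs of this kind with the highest means, since Nrd1-dependent termination is known to act just past the ends of snoRNAs. Letters are the R64 reference from RefSeq, 5′ to 3′ on the strand of the snoRNA, with GTAA and GTAG (bound by Nrd1 as RNA) and TCTT (bound by Nab3 as RNA) in capitals. The windows are chrXII:199390-199489 (plus strand, after snR30, NUT0490), chrX:227994-228093 (minus strand, after snR37, NUT1169), chrVII:317056-317155 (plus strand, after snR82, NUT0255) and chrVII:346231-346330 (plus strand, after snR10, NUT0258). None of the 4 windows overlaps an annotated gene.
snR30: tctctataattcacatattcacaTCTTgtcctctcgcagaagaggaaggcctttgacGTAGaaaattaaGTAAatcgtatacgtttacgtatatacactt
snR37: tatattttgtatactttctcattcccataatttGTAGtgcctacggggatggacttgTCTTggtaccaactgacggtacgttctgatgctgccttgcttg
snR82: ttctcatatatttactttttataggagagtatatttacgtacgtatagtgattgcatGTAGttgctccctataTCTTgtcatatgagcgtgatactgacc
snR10: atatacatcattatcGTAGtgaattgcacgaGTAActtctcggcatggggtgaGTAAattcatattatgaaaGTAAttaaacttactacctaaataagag

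The snR30 window holds 1 copy each of GTAA, GTAG and TCTT, the snR37 and snR82 windows 1 GTAG and 1 TCTT each, and the snR10 window 3 copies of GTAA and 1 of GTAG. The search covered the sense strand only and allowed overlaps. Over the windows of the same length after all 76 annotated snoRNA genes, 47.4% hold GTAA, 39.5% GTAG and 84.2% TCTT. After the 6002 protein-coding genes the shares are 41.9%, 20.4% and 51.5%. Those windows start at the annotated end of the gene, which need not be the 3′ end of the mRNA, so the regions may differ in kind. A match is a description of the letters and not a measured binding site.

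**Figure D2:**
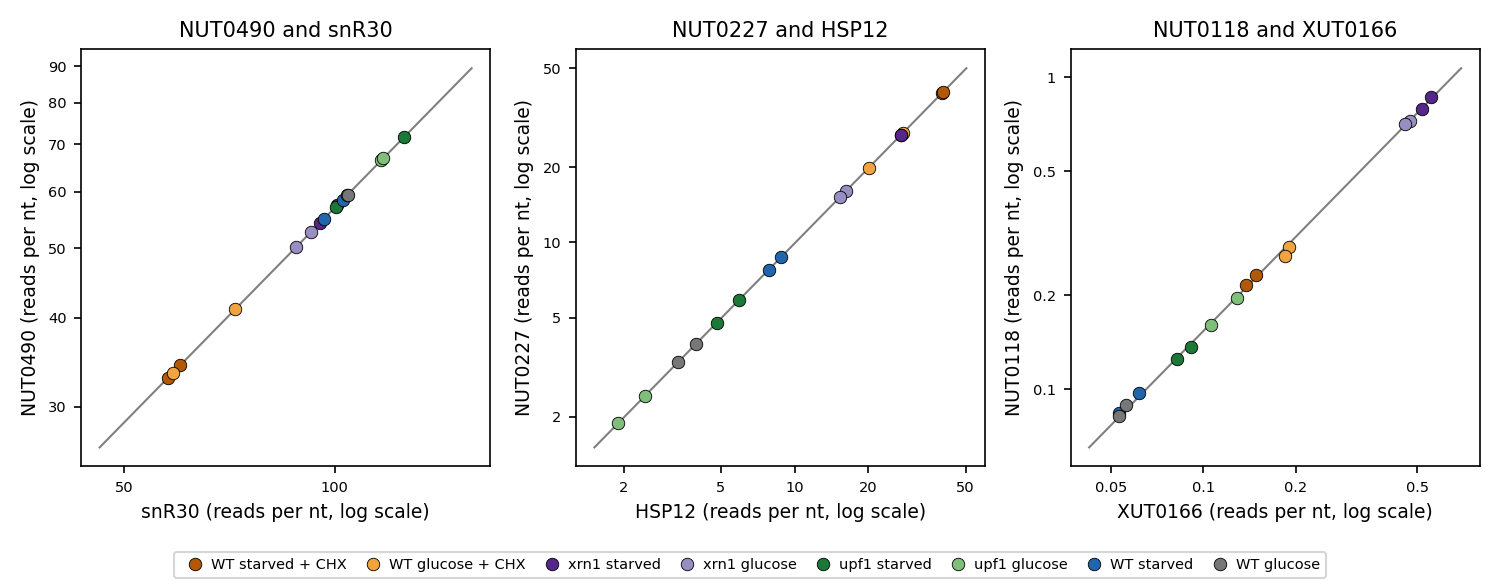
Read density of the highest NUT of each kind (vertical axes) against its partner (horizontal axes), both in reads per nucleotide on log scales, with 1 point per library and a line at the mean ratio. Points for NUT0490 and snR30 and for NUT0227 and HSP12 lie on the line in all 16 libraries, at ratios of 0.570 and 0.993, and those for NUT0118 and XUT0166 lie at ratios between 1.45 and 1.596.

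NUTs with different kinds of partner differed in their median changes. NUTs that track an XUT, SUT or CUT had the largest median rises without Xrn1 (log2 3.31 in glucose) and without Upf1 (log2 1.55 in glucose). NUTs that track an mRNA had a median of log2 2.33 without Xrn1 and 0.11 without Upf1, and those that track a small RNA had medians of −0.14 without Xrn1 and −0.00069 without Upf1. The 234 examined NUTs with no partner lay between, at 2.55 without Xrn1 and 0.80 without Upf1. With levels scaled to protein-coding genes the medians without Xrn1 were 1.44, 0.35, −2.21 and 0.60 for NUTs that track an XUT, SUT or CUT, an mRNA, a small RNA or nothing, and those without Upf1 were 1.58, 0.03, −0.086 and 0.77. These are medians of fitted log2 changes, given with no test, and the partner kinds were found in the same libraries. The mean of at least 0.05 was taken over all 16 libraries, so NUTs high mainly without Xrn1, such as NUT0437, could reach it. XUTs, partners of 42 of the 75, are named for sensitivity to Xrn1, so a rise of these NUTs without it was built in.

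**Figure D3:**
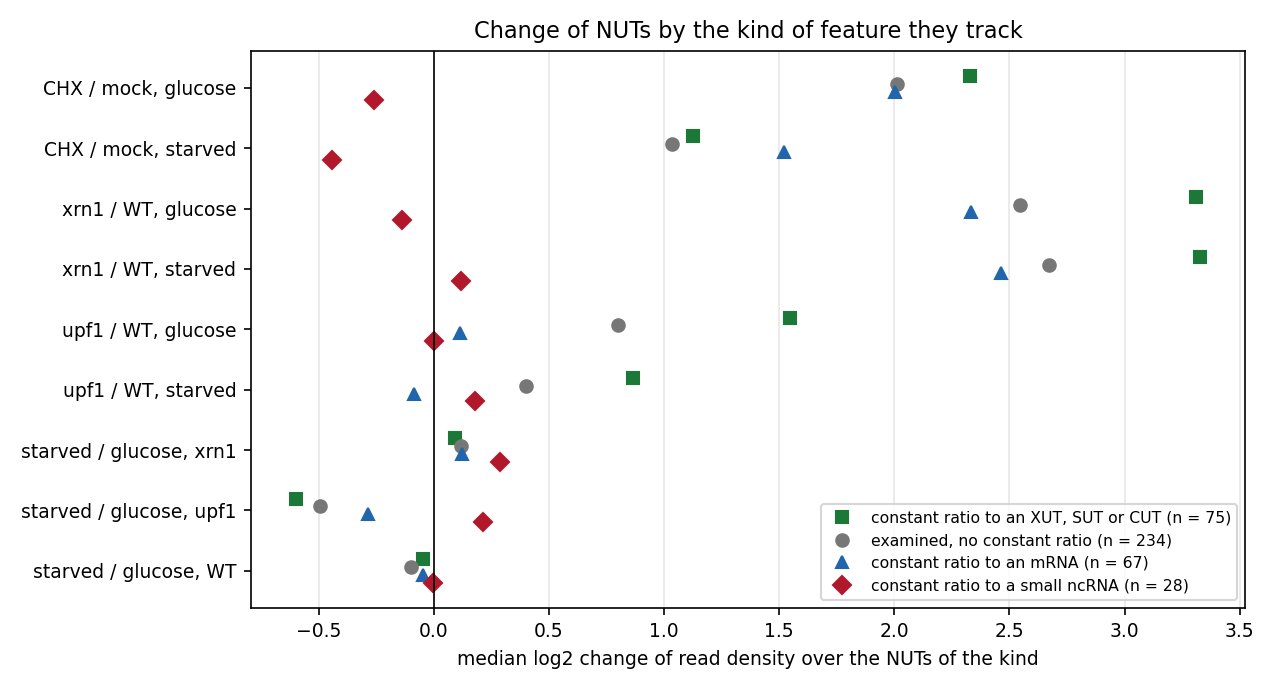
Median log2 change of read density (horizontal axis) for 9 comparisons, over the NUTs of 4 kinds defined by the feature they keep a constant ratio to. At the deposited scaling, NUTs that track a small RNA lie between −0.44 and 0.29 in every comparison plotted, while those that track an XUT, SUT or CUT reach 3.33 without Xrn1.

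Loss of Xrn1 raised nearly all NUTs. In glucose 1294 NUTs were higher and 9 lower in xrn1Δ than in WT cells, with a median log2 change of 1.86 (limma, adjusted p below 0.05 over all 11606 features tested), beside a background of 91% of all features called (90.5% higher and 0.483% lower) and a median of 2.04. The share of NUTs called higher was 90.2%, next to that background. In RNA from whole cultures, fewer cells with a transcript and less of it per cell cannot be told apart. With levels scaled to the median protein-coding gene, which moves the median of all features by −1.88, the split was 506 higher and 171 lower. Scaled to snoRNAs it was 1278 higher and 4 lower.

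The largest rise without Xrn1 was that of NUT0437, which tracks SUT221 and is listed between MNN4 and PTK1 on chromosome XI. It had 0.860 and 0.764 reads per nucleotide in xrn1Δ cells, against 0.0158 and 0.0173 in WT cells (log2 change 5.34 ± 0.13 SE, limma adjusted p = 1.35e-11). NUT0982, which tracks XUT1150 next to GLC7, the catalytic subunit of protein phosphatase 1, had 0.693 and 0.596, against 0.0196 and 0.0185 (log2 4.83 ± 0.13). Both libraries of each group were far apart from the other pair in level. NUT1220, with no partner, had 0.758 and 0.712 in xrn1Δ, against 0.0250 and 0.0238 in WT cells (log2 4.72 ± 0.12). NUT0469, listed next to GAP1, the general amino acid permease gene, had 0.920 and 0.889 in xrn1Δ, against 0.0288 and 0.0372 in WT cells (log2 4.64 ± 0.15). NUT1242, which tracks XUT1465, rose by 4.59 ± 0.26 on the log2 scale.

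The 5 NUTs with the largest falls without Xrn1 changed far less. NUT0891, which tracks the snoRNA snR63, had 11.1 and 10.5 reads per nucleotide in xrn1Δ, against 14.3 and 15.2 in WT cells (log2 change −0.46 ± 0.07, limma adjusted p = 1.68e-05). NUT1428, which tracks snR36, changed by −0.49 ± 0.15, NUT0952 by −0.57 ± 0.23, NUT0186 by −0.45 ± 0.13 and NUT0401, next to TDH1, by −0.43 ± 0.12. The calls for NUT0952, NUT0186 and NUT0401 were lost with levels scaled to snoRNAs, and that for NUT0952 also with a 10 times larger added density (log2 −0.24). That for NUT1428 was lost without WT glucose replicate 1 (log2 −0.37), that for NUT0952 without the same library (−0.42) or xrn1Δ glucose replicate 2 (−0.44), and that for NUT0186 without xrn1Δ glucose replicate 1 (−0.38).

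Among starved cells the same contrast gave 1332 NUTs higher and 6 lower in xrn1Δ than in WT, with a median log2 change of 2.06 beside 93.3% of all features called (93.1% higher and 0.258% lower). With the protein-coding scaling, a shift of −2.21, the split was 449 higher and 207 lower. Of the NUTs called higher, 1259 were shared with the glucose contrast, 97.3% of that list and 94.5% of the starved one. Over all features the shares were 98.5% and 95.8%. These 2 contrasts use different libraries but share 1 estimate of spread per feature, so their lists are not independent. NUT0469 had 0.960 and 0.956 in starved xrn1Δ cells, against 0.0188 and 0.0166 in starved WT cells (log2 5.50 ± 0.15, limma adjusted p = 8.74e-12). NUT0437 rose by 5.25 ± 0.13 and NUT1423, which tracks XUT1700, by 4.86 ± 0.19. NUT1072 went the other way, with 0.0552 and 0.0459 in starved xrn1Δ, against 0.187 and 0.185 in starved WT cells (log2 −1.82 ± 0.21). NUT0864, which tracks the mRNA of HSP30, a stress-induced membrane protein, fell by 0.90 ± 0.13, and NUT1525, next to the aquaporin gene AQY1, by 0.87 ± 0.14.

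Loss of Upf1 raised fewer NUTs. In glucose 619 NUTs were higher and 13 lower in upf1Δ than in WT cells, with a median log2 change of 0.54, beside 42% of all features called (32% higher and 9.96% lower) and a median of 0.18. The share of NUTs called higher, 43.2%, lay above that of all features and below the 68.1% of SUTs and 62.3% of XUTs, while that of CUTs was 19.4%. Within the NUTs, 70 of the 75 that track an XUT, SUT or CUT rose, 140 of the 234 with no partner, 20 of the 67 that track an mRNA and none of the 28 that track a small RNA. The split was 676 higher and 29 lower scaled to protein-coding genes, and 527 higher and 1 lower scaled to snoRNAs.

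NUT0676 and NUT1003 headed the rises without Upf1, and their 2 upf1Δ libraries differed widely. NUT0676, which tracks the mRNA of the zinc-regulated gene ZPS1, had 2.00 and 0.176 in upf1Δ, against 0.0345 and 0.0310 in WT cells (log2 4.05 ± 1.12, limma adjusted p = 0.0109). Without upf1Δ glucose replicate 1 its change was 2.31 and not called, and without WT glucose replicate 2 it was 3.98 and not called. It was 5.79 without upf1Δ glucose replicate 2. NUT1003, listed next to ZRT1, the high-affinity zinc transporter gene, had 0.286 and 0.1003 in upf1Δ, against 0.0161 and 0.0177 in WT cells (log2 3.08 ± 0.51), with 2.34 without upf1Δ glucose replicate 1 and 3.82 without replicate 2, both past the threshold. In both, replicate 1 was the higher upf1Δ library.

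Other rises were even between replicates. NUT0564, with no partner, had 0.184 and 0.165 in upf1Δ, against 0.0172 and 0.0184 in WT cells (log2 3.05 ± 0.15, limma adjusted p = 2.04e-08). NUT0672 had 0.331 and 0.306, against 0.0356 and 0.0391 (log2 2.97 ± 0.20), and its neighbour NUT0671 had 0.463 and 0.374, against 0.0524 and 0.0510 (log2 2.92 ± 0.17). These 2 are listed side by side near BDS1 on chromosome XV.

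Of the 13 NUTs that fell without Upf1, the 5 largest included 3 that track an mRNA. NUT0227 tracks HSP12, a small stress-induced membrane-protecting protein, and had 2.43 and 1.88 in upf1Δ, against 3.32 and 3.91 in WT cells (log2 −0.75 ± 0.16, limma adjusted p = 0.0018). NUT1103, which tracks HXT5, a hexose transporter induced at low glucose, changed by −0.52 ± 0.12, and NUT0119, which tracks CPP3, by −0.57 ± 0.10. NUT0691, next to GPD2, changed by −0.86 ± 0.22 and NUT0608, next to ICY1, by −0.52 ± 0.17. Scaled to snoRNAs, the calls for NUT0227, NUT0119, NUT1103 and NUT0608 were lost. The call for NUT0691 was lost without WT glucose replicate 1 (−0.77) or upf1Δ glucose replicate 1 (−0.61). That for NUT0608 was lost without WT glucose replicate 2 (−0.42) or upf1Δ glucose replicate 2 (−0.28).

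Among starved cells 349 NUTs were higher and 21 lower in upf1Δ than in WT, with a median log2 change of 0.30, beside 35% of all features called (19.1% higher and 15.9% lower). Scaled to snoRNAs, a shift of −0.39, the split was 118 higher and 90 lower, and scaled to protein-coding genes it was 576 and 26. Without WT starved replicate 1 the calls came to 240 and without upf1Δ starved replicate 2 to 215. The starved list shared 322 higher NUTs with the glucose list, 52.0% of the glucose list and 92.3% of the starved one, beside 54.9% and 92.0% over all features. NUT0671 had 0.314 and 0.325 in starved upf1Δ, against 0.0512 and 0.0436 in starved WT cells (log2 2.66 ± 0.17, limma adjusted p = 8.14e-07), and NUT0672 rose by 2.40 ± 0.20. NUT0676 again differed between replicates, with 1.26 and 0.124 against 0.0340 and 0.0312 (log2 3.47 ± 1.12). That call was lost with no filter on low values, with a 10 times larger added density (2.73), without upf1Δ starved replicate 1 (1.82), without WT starved replicate 1 (3.53) or without WT starved replicate 2 (3.42), while without upf1Δ starved replicate 2 the change was 5.125. NUT1103 had 0.214 and 0.198, against 0.400 and 0.363 in starved WT cells (log2 −0.88 ± 0.12), while NUT0814, next to ATG13, fell by 0.84 ± 0.17 and NUT0608 by 0.84 ± 0.17.

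Set directly against upf1Δ in glucose, xrn1Δ cells had 1185 NUTs higher and 12 lower, with a median log2 difference of 1.24, beside 86.9% of all features called (86.4% higher and 0.517% lower). Under the protein-coding scaling, a shift of −1.84, the split turned to 96 higher and 460 lower. NUT0453, next to APE1, had 0.405 and 0.351 in xrn1Δ, against 0.0146 and 0.0107 in upf1Δ (log2 4.56 ± 0.23, limma adjusted p = 9.94e-10). NUT1459, which tracks the mRNA of the autophagy gene ATG41, had 3.87 and 3.14, against 0.261 and 0.223 (log2 3.83 ± 0.14), and NUT1242 differed by 3.72 ± 0.26. NUT1525 was lower, with 0.0469 and 0.0513 in xrn1Δ, against 0.234 and 0.179 in upf1Δ (log2 −1.98 ± 0.14). NUT0951 differed by −1.23 ± 0.16 and NUT1177 by −0.68 ± 0.25, and the last call was lost without upf1Δ glucose replicate 2 (−0.61) or xrn1Δ glucose replicate 1 (−0.62).

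Cycloheximide in glucose raised 1320 NUTs and lowered 16, with a median log2 change of 1.78, beside 92.1% of all features called (91.2% higher and 0.836% lower) and a median of 1.94. Relative to protein-coding genes, a shift of −1.85, the split was 367 higher and 180 lower. As in every cycloheximide contrast, the libraries also differ in their column prefix. NUT0676 had 1.86 and 1.90 with cycloheximide, against 0.0345 and 0.0310 in mock-treated cells (log2 5.69 ± 1.12, limma adjusted p = 0.000298). NUT1003 had 0.649 and 0.552, against 0.0161 and 0.0177 (log2 4.87 ± 0.51). NUT0851, which tracks the mRNA of ICS2, had 1.74 and 1.44, against 0.0736 and 0.0819 (log2 4.29 ± 0.12). NUT0493 rose by 3.98 ± 0.24 and NUT0062 by 3.82 ± 0.28, both with no partner.

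Of the 16 NUTs lowered by cycloheximide in glucose, 14 track a small RNA, and the 28 NUTs of that kind had a median log2 change of −0.26, with 2 of them higher. Among the 76 snoRNAs themselves 29 were lower and 4 higher, with a median of −0.30. Scaled to snoRNAs, the median of the 28 NUTs turned to 0.068, with 6 of the 28 higher and 2 lower. NUT0490 had 41.1 and 33.5 reads per nucleotide with cycloheximide, against 59.4 and 59.5 without (log2 −0.68 ± 0.11, limma adjusted p = 4.66e-05). Its partner snR30 had 72.1 and 58.7, against 104 and 104. NUT1169 had 36.6 and 32.3, against 52.2 and 54.4 (log2 −0.63 ± 0.08), NUT1434, which tracks snR35, changed by −0.70 ± 0.13, and NUT0692, which tracks snR81, by −0.51 ± 0.23. NUT1269, listed between JIP3 and RPS25B with no partner, had 0.127 and 0.0591, against 0.232 and 0.154 (log2 −1.09 ± 0.28), with −1.62 without the first cycloheximide library and −0.56 without the second. Scaled to snoRNAs, 3 NUTs were lower and 1362 higher, and the calls for NUT1169 (−0.30) and NUT0692 (−0.18) were lost. The call for NUT0692, at a limma adjusted p of 0.0485, was also lost with a replicate block, with no filter on low values, with a 10 times smaller added density and without any of 11 single libraries taken one at a time. NUT1162, the third highest NUT by mean, was listed between SNA3 and DAS1 with no partner and had 21.5 and 20.9 with cycloheximide, against 29.4 and 27.1 without (log2 −0.41 ± 0.10), a call lost when scaled to snoRNAs (−0.083).

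In starved cells cycloheximide raised 790 NUTs and lowered 55, with a median log2 change of 0.72, beside 74.1% of all features called (65.8% higher and 8.31% lower) and a median of 1.03. Against the median protein-coding gene, a shift of −1.06, the split turned to 247 higher and 340 lower. The list shared 774 higher NUTs with the glucose list, 58.6% of the glucose list and 98.0% of the starved one, beside 71.0% and 98.5% over all features. NUT0604, listed next to SIP18, a desiccation-stress gene, had 0.927 and 0.663 with cycloheximide, against 0.0792 and 0.0682 without (log2 3.35 ± 0.21, limma adjusted p = 2e-08). NUT0856 rose by 3.27 ± 0.31, NUT0541 by 3.11 ± 0.36 and NUT1140, next to the stress repressor gene XBP1, by 3.11 ± 0.16. NUT0676 rose by 3.30 ± 1.12, a call lost on leaving out any of the 4 libraries compared (3.24 to 3.35) and when scaled to protein-coding genes (2.13). Its replicates here were close, at 0.355 and 0.349 with cycloheximide, against 0.0340 and 0.0312 without. The SE comes from a spread shared by all groups, and the upf1Δ and xrn1Δ replicates of NUT0676 lay far apart.

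The 5 largest falls with cycloheximide in starved cells were of NUTs with no partner. NUT1244, listed next to the disaggregase gene HSP104, had 0.0142 and 0.00409 with cycloheximide, against 0.0422 and 0.0550 without (log2 −2.14 ± 0.33, limma adjusted p = 6.08e-05), with −2.75 without starved cycloheximide replicate 1 and −1.54 without replicate 2. NUT1363, next to the tropomyosin gene TPM1, had 0.0265 and 0.0265, against 0.0824 and 0.101 (log2 −1.66 ± 0.19). NUT1042 changed by −1.24 ± 0.22, NUT1506 by −1.18 ± 0.36 and NUT1212, next to the glycolytic gene GPM1, by −1.18 ± 0.13. The call for NUT1506 was lost without starved cycloheximide replicate 2 (−0.93) and with a 10 times larger added density (−0.50). The 76 snoRNAs had 28 lower and 6 higher, with a median of −0.27. Among the 28 NUTs that track a small RNA, 16 were lower and 1 higher, with a median of −0.44. Scaled to snoRNAs, 6 of these were lower and 4 higher, with a median of −0.23, and over all NUTs 870 were higher and 26 lower.

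**Figure D4:**
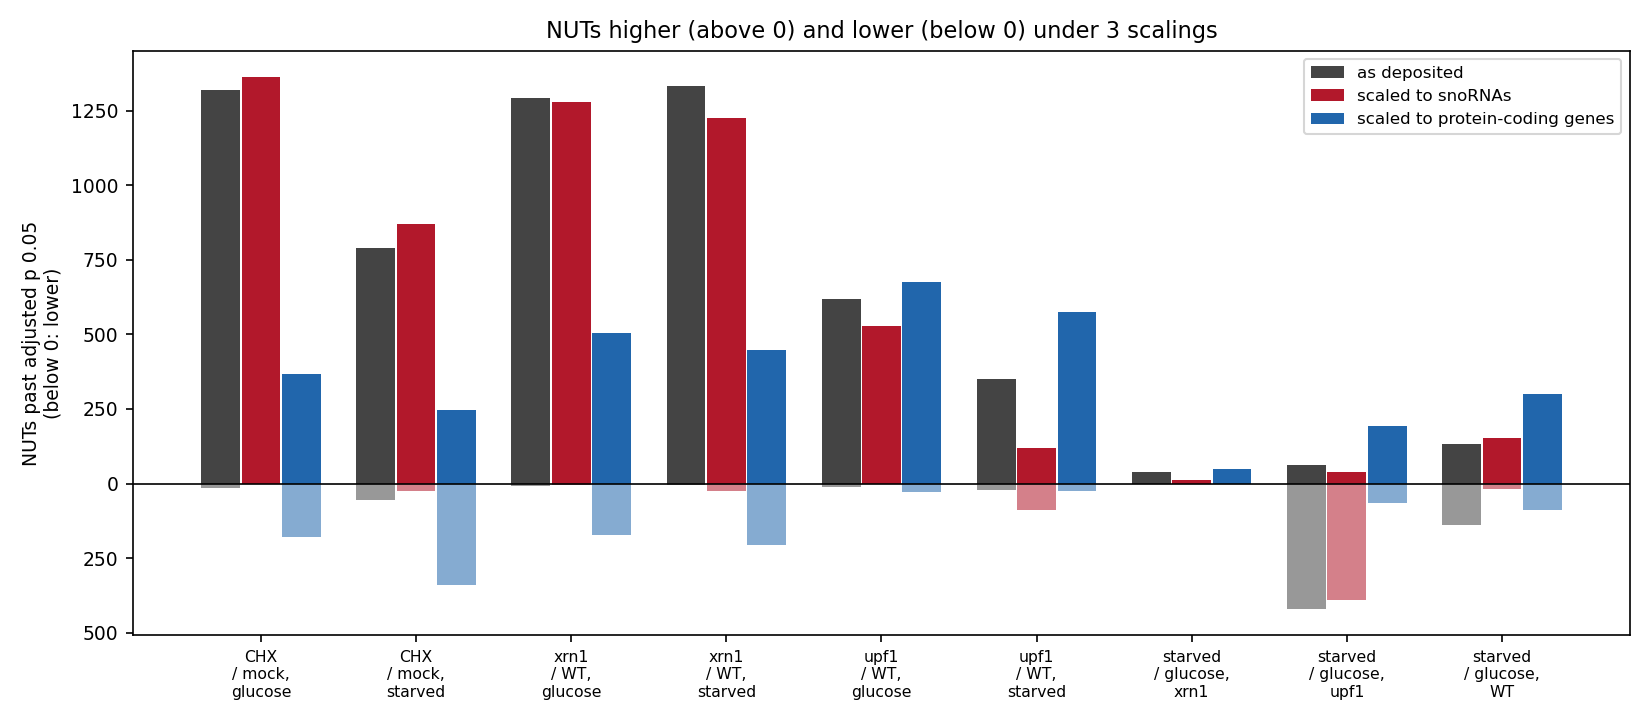
Number of NUTs past an adjusted p of 0.05 that were higher (above 0) or lower (below 0) in each of 9 comparisons, under the deposited scaling and 2 others. The rises with cycloheximide and without Xrn1 shrink when levels are scaled to protein-coding genes, while those without Upf1 in glucose lie between 527 and 676 under all 3.

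Glucose starvation changed a smaller share of NUTs than of all features in WT cells. There were 132 NUTs higher and 140 lower in starved than in glucose-grown WT cells, 19.0% of those tested, beside 43.5% of all features called (10% higher and 33.5% lower). The shares called were 20.5% of XUTs, 25.8% of CUTs, 27.5% of SUTs and 63.7% of protein-coding genes. The median log2 change was −0.11 for NUTs and −0.27 for all features. Calls rose with level: with the tested NUTs split by mean into 3 sets of 478, the highest set had 89 higher and 88 lower and the lowest set 9 higher and 14 lower. Scaled to protein-coding genes, a shift of 0.29, the split was 299 higher and 89 lower, and scaled to snoRNAs, a shift of 0.31, it was 154 higher and 18 lower. Without WT glucose replicate 2 the calls came to 179.

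Of the 5 NUTs with the largest rises in starved WT cells, 3 track mRNAs of genes listed within 2 rows of them. NUT1459, with ATG41, had 2.39 and 2.48 reads per nucleotide in starved cells, against 0.295 and 0.288 in glucose (log2 3.05 ± 0.14, limma adjusted p = 1.36e-08). NUT0219 tracks ZNF1, a transcription factor of growth on non-fermentable carbon, and had 0.0829 and 0.0700, against 0.00415 and 0.00477 (log2 3.30 ± 0.17). NUT0664, which tracks EGO4, had 0.811 and 0.693, against 0.118 and 0.105 (log2 2.71 ± 0.15). The starved libraries of each were well above both glucose libraries.

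The other 2 had no partner. NUT1072 is listed between CBF2, which starts at position 767429 of chromosome VII, and VPS62, which starts at 770569 (R64). It had 0.187 and 0.185 in starved WT cells, against 0.0169 and 0.0114 in glucose (log2 3.43 ± 0.21, limma adjusted p = 8.57e-08). NUT0582 is listed before the mitochondrial alcohol dehydrogenase gene ADH3 on chromosome XIII and had 0.0519 and 0.0434, against 0.00214 and 0.00106 (log2 3.29 ± 0.25). Its glucose values lie below the added density of 0.00364, so this change is understated on that scale.

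Among the falls, NUT0186, listed between RML2 and PAU2 on chromosome V, had 0.152 and 0.172 in starved WT cells, against 0.498 and 0.501 in glucose (log2 −1.61 ± 0.13, limma adjusted p = 1.07e-06). NUT0275, next to the sterol gene ERG25, had 0.0101 and 0.0180, against 0.0466 and 0.0476 (log2 −1.56 ± 0.20). By table order, NUT0382 lies before RPL17B and NUT1036 after RPL7A, both ribosomal protein genes. NUT0382 changed by −1.45 ± 0.34, with −0.84 without WT starved replicate 1 and −2.05 without replicate 2. NUT1036 changed by −1.34 ± 0.37, a call lost without WT glucose replicate 1 (−1.13), without WT starved replicate 1 (−1.156) or when scaled to protein-coding genes (−0.99). NUT1269 changed by −1.41 ± 0.28.

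**Figure D5:**
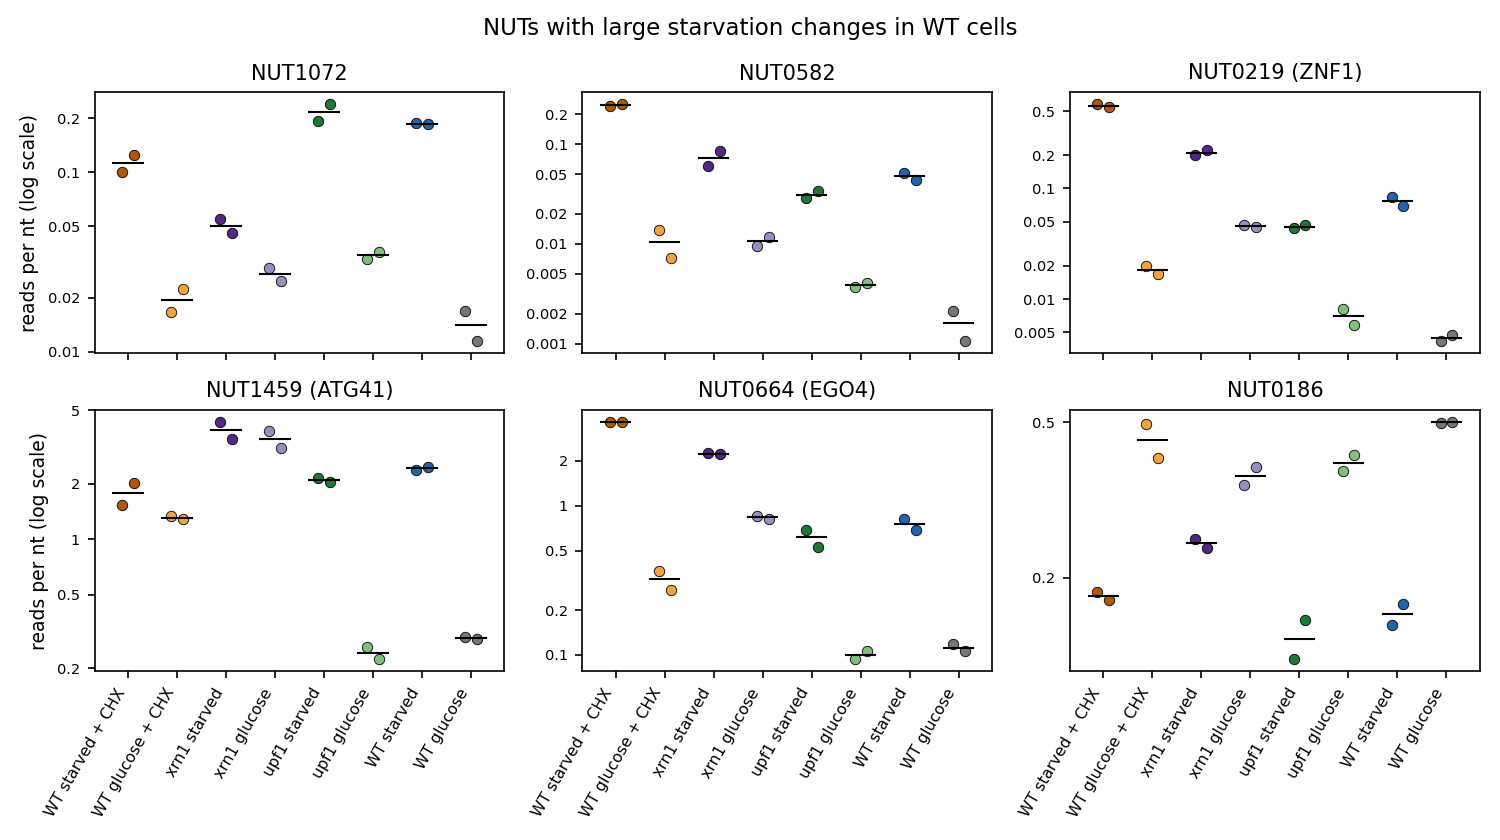
Read density (reads per nucleotide, log scale) of 6 NUTs with large changes in starved WT cells, in each library of the 8 groups, with a line at the group mean. NUT1072 reaches 0.187 in starved WT cells, against 0.0169 or less in glucose, but 0.0552 or less in starved xrn1Δ cells, while NUT0582 and NUT0219 are highest in starved WT cells with cycloheximide.

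In upf1Δ cells starvation lowered more NUTs, with 62 higher and 420 lower in starved than in glucose-grown cells and a median log2 change of −0.39, beside 55% of all features called (4.29% higher and 50.8% lower). On the protein-coding scale, a shift of 0.51, the split turned to 194 higher and 64 lower. The calls came to 234 without upf1Δ glucose replicate 1, 307 without upf1Δ starved replicate 1 and 304 without upf1Δ starved replicate 2. NUTs lower in both genotypes numbered 110, which is 78.6% of the WT list and 26.2% of the upf1Δ list, and 49 were higher in both (37.1% and 79.0%). Over all features the shares were 91.8% and 60.5% for lower calls and 39.2% and 91.6% for higher ones. A further 13 NUTs were higher in starved WT and lower in starved upf1Δ cells, among 143 of all features.

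NUT1244 rose most, with 0.0643 and 0.0881 in starved upf1Δ cells, against 0.00436 and 0.00644 in glucose (log2 3.14 ± 0.33, limma adjusted p = 8.78e-06). NUT1459 had 2.15 and 2.06, against 0.261 and 0.223 (log2 3.10 ± 0.14), and NUT0864, with HSP30, had 2.62 and 2.28, against 0.324 and 0.336 (log2 2.87 ± 0.13). NUT0382 fell by 1.54 ± 0.34 on the log2 scale, NUT0161, next to RPL12B, by 1.53 ± 0.15 and NUT0186 by 1.47 ± 0.13. The call for NUT0382 was lost when scaled to protein-coding genes (−1.02).

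In xrn1Δ cells starvation changed 40 NUTs, 39 of them higher, with a median log2 change of 0.10, beside 3.03% of all features called (2.8% higher and 0.233% lower). None of the 75 NUTs that track an XUT, SUT or CUT passed, against 13 of the 67 that track an mRNA, all higher. Scaled to snoRNAs, 12 NUTs passed in all, 4 of the 67 and none of the 75. Scaled to protein-coding genes, 17 of the 67 were higher and 1 lower, and 3 of the 75 were higher. The calls came to 15 without starved xrn1Δ replicate 1, 17 without replicate 2, 20 without xrn1Δ glucose replicate 1 and 17 without replicate 2. Of the 39 higher NUTs, 31 were also higher in starved WT cells, 79.5% of the xrn1Δ list and 23.5% of the WT list, beside 87.4% and 24.4% over all features. NUT0582 had 0.0606 and 0.0856 in starved xrn1Δ cells, against 0.00954 and 0.0118 in glucose (log2 2.41 ± 0.25, limma adjusted p = 8.45e-05). NUT0219, with ZNF1, had 0.200 and 0.220, against 0.0465 and 0.0449 (log2 2.11 ± 0.17), and NUT0283, which tracks CTT1, the cytosolic catalase, had 6.13 and 6.16, against 2.02 and 1.92 (log2 1.64 ± 0.16). The 1 lower NUT was NUT0186 (log2 −0.56 ± 0.13, limma adjusted p = 0.0418), a call lost without any of 10 single libraries taken one at a time and under both other scalings.

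Tests of the difference between 2 effects showed where NUTs responded to starvation unequally. The cycloheximide change was more negative in starved than in glucose-grown WT cells for 808 NUTs and more positive for 18 (limma interaction, adjusted p below 0.05), with a median difference of −0.98, beside 63% of all features called (2.06% higher and 60.9% lower) and a median of −0.88. After scaling to protein-coding genes, a shift of 0.75, the split was 253 more negative and 128 more positive. NUT0760, listed next to RPL36B, had 0.00294 and 0.00462 in starved cells with cycloheximide and 0.102 and 0.0943 in glucose with cycloheximide, against 0.00797 and 0.00436 in starved and 0.00745 and 0.00853 in glucose-grown mock-treated cells (log2 difference −3.52 ± 0.30).

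The starvation change of 54 NUTs was lower in upf1Δ than in WT cells and that of none higher, beside 4.9% of all features called (0.0948% higher and 4.81% lower), by limma. At an unadjusted p below 0.05 in either direction there were 240 of 1434 NUTs, beside 2197 of all 11606 features. The split was 6 higher and 60 lower scaled to protein-coding genes, and 1 higher and 187 lower scaled to snoRNAs. Of the 54, 16 were among the 75 NUTs that track an XUT, SUT or CUT (21.3%). The shares called lower were 12.8% of SUTs, 8.19% of XUTs, 0.885% of CUTs and 3.77% of NUTs. NUT0982, with XUT1150, had 0.117 and 0.119 in starved and 0.142 and 0.141 in glucose-grown upf1Δ cells, against 0.0683 and 0.0666 in starved and 0.0196 and 0.0185 in glucose-grown WT cells (log2 difference −1.91 ± 0.18). NUT0703, next to DFG16, differed by −1.74 ± 0.19. Its level was 0.0492 and 0.0584 in starved upf1Δ cells, against 0.0747 and 0.0649 in glucose. The calls came to 18 without WT starved replicate 1, upf1Δ glucose replicate 1 or upf1Δ starved replicate 2, to 26 without WT glucose replicate 1, to 83 without upf1Δ glucose replicate 2 and to 34 without either starved xrn1Δ library.

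Between xrn1Δ and WT cells the starvation change differed for 94 NUTs, 61 of them higher in xrn1Δ, beside 23.7% of all features called (20.3% higher and 3.39% lower). Once scaled to protein-coding genes, a shift of −0.31, the split turned to 29 higher and 126 lower, and scaled to snoRNAs, a shift of −0.48, to 0 and 25. NUT1459, with ATG41, had 4.34 and 3.52 in starved and 3.87 and 3.14 in glucose-grown xrn1Δ cells, against 2.39 and 2.48 in starved and 0.295 and 0.288 in glucose-grown WT cells (log2 difference −2.88 ± 0.20, limma adjusted p = 6.26e-06). For NUT1072 the difference was −2.61 ± 0.29. The calls came to 51 and 55 without starved xrn1Δ replicate 1 and 2, to 52 without xrn1Δ glucose replicate 2, to 58 and 55 without WT glucose replicate 1 and 2 and to 62 without WT starved replicate 2. Lower calls outnumbered higher ones in 3 of these 6.

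Genes of the machinery that terminates and degrades such transcripts were read in the same comparisons. Of 23 genes of Nrd1-dependent termination, TRAMP and the nuclear exosome, 21 were lower and none higher in starved than in glucose-grown WT cells, all 23 were higher with cycloheximide in glucose, and all 23 were higher in xrn1Δ in glucose. Of all features, 33.5%, 91.2% and 90.5% were called in those directions, and of protein-coding genes 53.0%, 98.8% and 97.6%. In upf1Δ cells in glucose 7 were lower and none higher, beside 9.96% of all features and 18.4% of protein-coding genes lower. In xrn1Δ cells none passed with starvation, with a median log2 change of −0.14. These counts depended on the scaling: relative to protein-coding genes, 6 were higher and 11 lower in xrn1Δ in glucose, 11 were higher and 3 lower with cycloheximide in glucose, and 1 was higher and 18 lower in starved WT cells. On that scale 19 were lower in upf1Δ in glucose and 4 were lower with starvation in xrn1Δ cells. Relative to snoRNAs, 2 were lower in starved WT cells and 1 in upf1Δ cells in glucose. NRD1 had 0.215 and 0.212 reads per nucleotide in starved WT cells, against 0.329 and 0.317 in glucose (log2 −0.59 ± 0.12, limma adjusted p = 0.00175). It had 2.90 and 2.54 with cycloheximide in glucose (log2 3.06 ± 0.12 over the same glucose cells). AIR1, which encodes an RNA-binding subunit of TRAMP, had 0.0537 and 0.0515 in starved WT cells, against 0.223 and 0.211 in glucose (log2 −1.97 ± 0.12). RRP6, the nuclear exosome's 3′-5′ exonuclease, fell by 0.66 ± 0.12 on the log2 scale in starved cells.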

How the data were processed

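Values are the authors' deposited normalized coverage signal, reads per nucleotide for each feature. The submitters' processing notes name Trim Galore, HISAT2 2.2.0, featureCounts 2.0.0, DESeq2 and build R64. How libraries were scaled is not given in the sources used here, and 8 columns equal to group means were not used. Values were tested as log2(density + 0.00364) with limma 3.58.1 in R 4.3.3, 1 mean per group over all 16 libraries, on the 11606 features with a mean of at least 0.00364. Each feature had 1 estimate of spread shared by all groups, so an SE reflects every group and not only those compared. P-values were adjusted by Benjamini-Hochberg within each comparison over all features, and the fit was tested on simulated data. Changes of low features are understated on this scale, so a difference between 2 changes can come out too large or too small. Only 42.1% of NUTs gave whole reads (tolerance 1e-06), so no count test was run.

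The text names the 5, 3 or 2 largest changes each way by comparison, for groups that do not overlap and a level of at least 0.02, and the 5 highest NUTs. NUT0118, NUT0206, NUT0258, NUT0661, NUT0965, NUT1261, NUT1320 and NUT1342 were chosen after their values were seen. Members and lists were chosen with earlier results of these data known.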

Additional observations from a re-analysis of the deposited data

Results flagged for a closer look

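The items here are those where a test of the difference between 2 effects passed the threshold (limma interaction terms). For starvation with cycloheximide, 826 NUTs passed. NUT0219, which tracks ZNF1, rose more with cycloheximide in starved than in glucose-grown cells (log2 difference 1.38), and so did NUT0518, listed next to TAR1 (1.35). The difference was negative for NUT0862 (−3.54) and NUT0760 (−3.52), which rose with cycloheximide in glucose (log2 2.965 and 3.13) and did not pass in starved cells (−0.58 and −0.39). NUT0862 had 0.00398 and 0.00226 reads per nucleotide in starved cells with cycloheximide and 0.0513 and 0.113 in glucose with cycloheximide, against 0.00352 and 0.0103 in starved and 0.00363 and 0.0108 in glucose-grown mock-treated cells.

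For starvation with loss of Upf1, 54 NUTs passed, and the largest differences were those of NUT0982 (−1.91) and NUT0703 (−1.74). For starvation with loss of Xrn1, 94 passed. The difference was negative for NUT1459 (−2.88) and NUT1072 (−2.61), whose starvation changes did not pass in xrn1Δ cells (log2 0.16 and 0.82) and were 3.05 and 3.43 in WT cells. It was positive for NUT0727 (1.61) and NUT0410 (1.44), whose starvation changes did not pass in xrn1Δ cells (0.565 and 0.47) and were −1.04 and −0.97 in WT cells.

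NUT0727 had 0.0770 and 0.0526 in starved and 0.0355 and 0.0493 in glucose-grown xrn1Δ cells, against 0.00374 and 0 in starved and 0.00769 and 0.00640 in glucose-grown WT cells. Its call (adjusted p = 0.0427) was lost without any of 8 single libraries taken one at a time, and the value was 1.10 without WT starved replicate 2. It was also lost scaled to protein-coding genes (1.78) or snoRNAs (1.23), with no filter on low values, and with a 10 times larger (0.54) or smaller (3.20) added density. That of NUT0410 (adjusted p = 0.0262) was lost without any of 6 single libraries taken one at a time, among them WT starved replicate 2 (1.11) and xrn1Δ glucose replicate 1 (1.04), and scaled to protein-coding genes (1.12) or snoRNAs (0.945).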

How the results depend on the processing

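Scaled to protein-coding genes, NUTs past the threshold came to 388 (starvation in WT), 547 (cycloheximide in glucose), 587 (cycloheximide in starvation), 677 (xrn1Δ in glucose), 602 (upf1Δ, starved), 656 (xrn1Δ, starved), 258 (starvation in upf1Δ), 556 (xrn1Δ against upf1Δ), 381 (starvation by cycloheximide) and 155 (starvation by xrn1Δ). The median log2 change then turned to 0.14 for starvation in WT, −0.12 for cycloheximide in starvation, 0.0063 for starvation in upf1Δ, −0.38 for xrn1Δ against upf1Δ and −0.062 for starvation by xrn1Δ. Scaled to snoRNAs, calls came to 172 (starvation in WT), 208 (upf1Δ, starved), 12 (starvation in xrn1Δ), 188 (starvation by upf1Δ) and 25 (starvation by xrn1Δ), and medians turned to 0.13, −0.044 and −0.20 for starvation in WT, starvation in xrn1Δ and starvation by xrn1Δ. These changes follow from the scaling itself, and the shares of all features called on the same scales are not given.

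With a 10 times larger added density, calls came to 147 (starvation in WT), 224 (upf1Δ, starved), 61 (starvation in xrn1Δ), 23 (starvation by upf1Δ) and 59 (starvation by xrn1Δ), and the cause was not tested. Among NUTs with a mean of at least 0.02, where fewer were counted, they were 743 (cycloheximide in glucose), 743 (xrn1Δ in glucose), 754 (xrn1Δ, starved), 721 (xrn1Δ against upf1Δ) and 493 (starvation by cycloheximide). Without the NUTs at a constant ratio to another feature, an alternative chosen after seeing the data, 25 remained for starvation in xrn1Δ and 31 for starvation by upf1Δ.

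Leaving out single libraries gave 179 to 302 calls for starvation in WT, 215 to 389 for upf1Δ when starved, 234 to 524 for starvation in upf1Δ, 15 to 45 for starvation in xrn1Δ, 18 to 83 for starvation by upf1Δ and 51 to 107 for starvation by xrn1Δ. A lone library was then assumed to vary like the other groups. Over all tested features, same-numbered libraries did not deviate together (correlations between −0.086 and 0.082 over 28 group pairs). NUT0676, however, was higher in replicate 1 than in replicate 2 of every mutant group. In xrn1Δ cells it had 1.59 and 0.387 in glucose and 1.75 and 0.462 when starved. Whether same-numbered libraries share more than a number was not tested further. With a replicate block, calls came to between 49 (starvation in xrn1Δ) and 1337 (cycloheximide in glucose), each within 1.5 times the count without it. Of 1936 recomputed changes of named NUTs, 85 lost their call and none changed sign. Many of these settings left out a library outside the contrast, which leaves the log2 change as it was. Outside the interactions, NUTs were named only where the compared groups did not overlap, so leaving out a library could not turn the sign. These totals are therefore no measure of robustness. Low depth limits NUTs near a density of 0.00364.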
